A study of Mus musculus with 8 samples.

Results

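The organic anion transporters of the SLC22 family were described by 10 genes, *Slc22a6*, *Slc22a7*, *Slc22a8*, *Slc22a12*, *Slc22a13*, *Slc22a18*, *Slc22a19*, *Slc22a23*, *Slc22a28*, and *Slc22a30*, out of 55367 genes in the count table. They were chosen by name and family with earlier results of these data known, and all 10 were found and passed the filter on low counts. RNA-Seq had been performed on whole kidneys of 8-week-old C57BL/6J mice, 4 of them *c-Maf*ΔTAM and 4 *c-Maf* fl/fl. Both groups carried floxed *c-Maf* (*Maf*) alleles and received tamoxifen (TAM). Only *c-Maf*ΔTAM mice carried *CAG-Cre-ER*TM, a tamoxifen-activated Cre recombinase behind a promoter that is active in most tissues. Deletion was therefore not limited to the kidney, and effects of Cre itself and of *c-Maf* loss cannot be told apart. The *c-Maf*ΔTAM mice are called knockouts and the *c-Maf* fl/fl mice controls from here on.

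Organic anion transporters move negatively charged molecules across the proximal tubule, among them many drugs, the waste products of protein metabolism, prostaglandins, and urate. OAT1 (*Slc22a6*) and OAT3 (*Slc22a8*) take organic anions from the blood into the cell in exchange for α-ketoglutarate, which a sodium-coupled dicarboxylate carrier returns to the cell. URAT1 (*Slc22a12*) and OAT10 (*Slc22a13*) lie in the luminal membrane and take up urate from the filtrate. Several of these genes are known to differ between male and female rodents.

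The 8 libraries held between 16649129 and 22990257 counts, and mitochondrial genes took 17.1% to 32.3% of them, with the largest share in knockout 1. Levels are given as TMM-scaled CPM, the counts of a gene relative to its library's total. *Maf* was at 9.06, 34.5, 29.6, and 10.1 CPM in knockouts 1 to 4 and at 305.4 to 379.9 CPM in controls (log2 fold change -4.05, standard error 0.512, adjusted *P* = 0.0115, edgeR). The labels number replicates and do not give the sex. *Xist*, an RNA made from the inactive X chromosome of females, had 17618 to 22387 counts in 5 mice and 2 to 22 counts in knockout 1 and controls 3 and 4. The summed counts of 4 Y-linked genes were 3 to 12 in those 5 mice and 2293 to 2886 in the 3 mice with low *Xist*. The genotypes thus differed in makeup, with 1 of 4 against 2 of 4 mice with low *Xist*, so the difference of each member is given for all 8 mice, with log2 *Xist* as a covariate, and for the 5 mice with high *Xist* (3 knockouts, 2 controls). The extraction protocol in the labels names liver, whereas the tissue is given as whole kidney. Of 10 hepatocyte genes, *Ahsg* and *Serpina3k* had no count in any library and the 10 together were at 37.0 to 64.7 CPM, against 1463 to 2278 CPM for 7 distal tubule and collecting duct genes.

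Over all 8 mice, *Slc22a18* and *Slc22a23* were lower in knockouts than in controls past the threshold, and no member was higher (edgeR's quasi-likelihood test, Benjamini-Hochberg adjusted *P* under 0.05). That is 2 of 10 members in either direction, against 2.16% of the 20149 genes tested. Lower calls made up 1.58% of the genes tested and higher calls 0.586%. At an unadjusted *P* under 0.05, 2 members were lower and 1, *Slc22a19*, was higher, against 7.44% and 6.58% of the genes tested. DESeq2 called the same 2 lower and *Slc22a19* higher, 3 of 10 against 3.84% of 22052 genes. The median log2 fold change was -0.42 over the 10 members and 0.003 over all genes tested. In 4 members the values of the genotypes did not overlap, *Slc22a8*, *Slc22a18*, and *Slc22a23* (lower) and *Slc22a19* (higher), which held for 9.79% of the genes tested. A two-sided exact permutation test gave *P* = 0.0286 for these 4, the smallest that 4 mice against 4 allow and fixed by the separation itself, and 0.143 to 0.943 for the other 6 members. In whole kidneys, fewer proximal tubule cells and less RNA per cell cannot be told apart. Of 10 S1 and S2 proximal tubule genes, 6 were lower past the threshold and 0 higher, whereas of 10 S3 genes (*Slc22a19* among them) 0 passed in either direction, with 3 higher and 0 lower at an unadjusted *P* under 0.05 and 2 higher with DESeq2. Their part in the differences of the members was not tested.

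**Figure D1:**
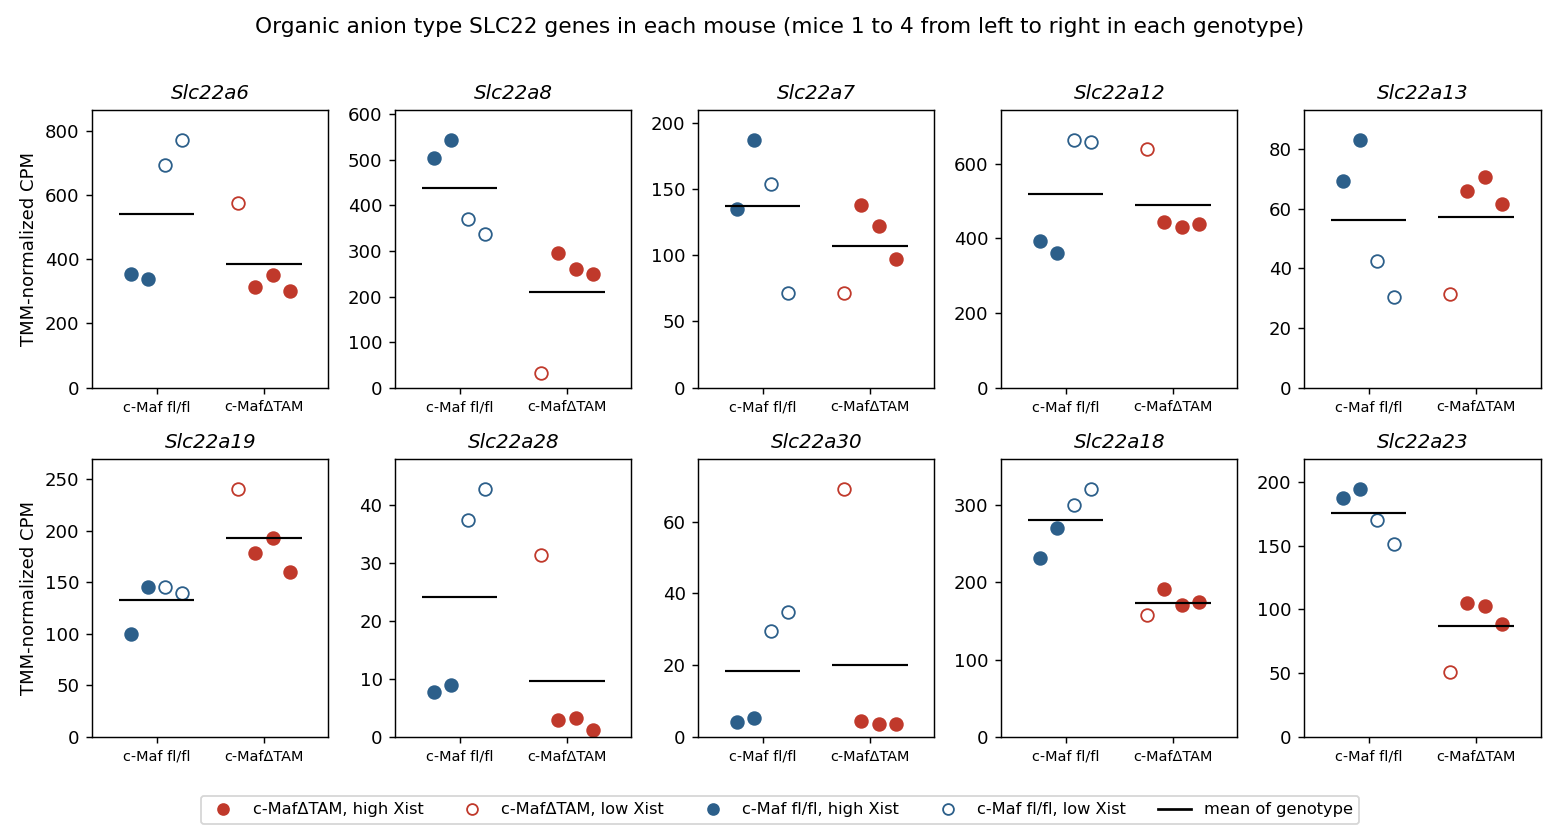
TMM-normalized CPM (y axis, from 0) of the 10 genes in each mouse, with controls in blue, knockouts in red, mice with low *Xist* as open circles, and the mean of each genotype as a bar. *Slc22a8*, *Slc22a18*, and *Slc22a23* had every knockout below every control, whereas *Slc22a6*, *Slc22a12*, *Slc22a13*, *Slc22a28*, and *Slc22a30* separated by *Xist* instead.

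In 5 of 10 members, the 3 mice with low *Xist* did not overlap the 5 mice with high *Xist*, which held for 14.3% of the genes tested. *Slc22a6*, *Slc22a12*, *Slc22a28*, and *Slc22a30* were higher and *Slc22a13* was lower in the mice with low *Xist*. These groups were read from the data, so they were compared without a test. With log2 *Xist* as a covariate, *Slc22a18* and *Slc22a23* were lower and *Slc22a19* was higher past the threshold (3 of 10, against 7.15% of the genes tested). Among the 5 mice with high *Xist*, *Slc22a8*, *Slc22a18*, *Slc22a23*, and *Slc22a28* were lower past it and none was higher (4 of 10, against 3.75% of 21027 genes tested).

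**Figure D2:**
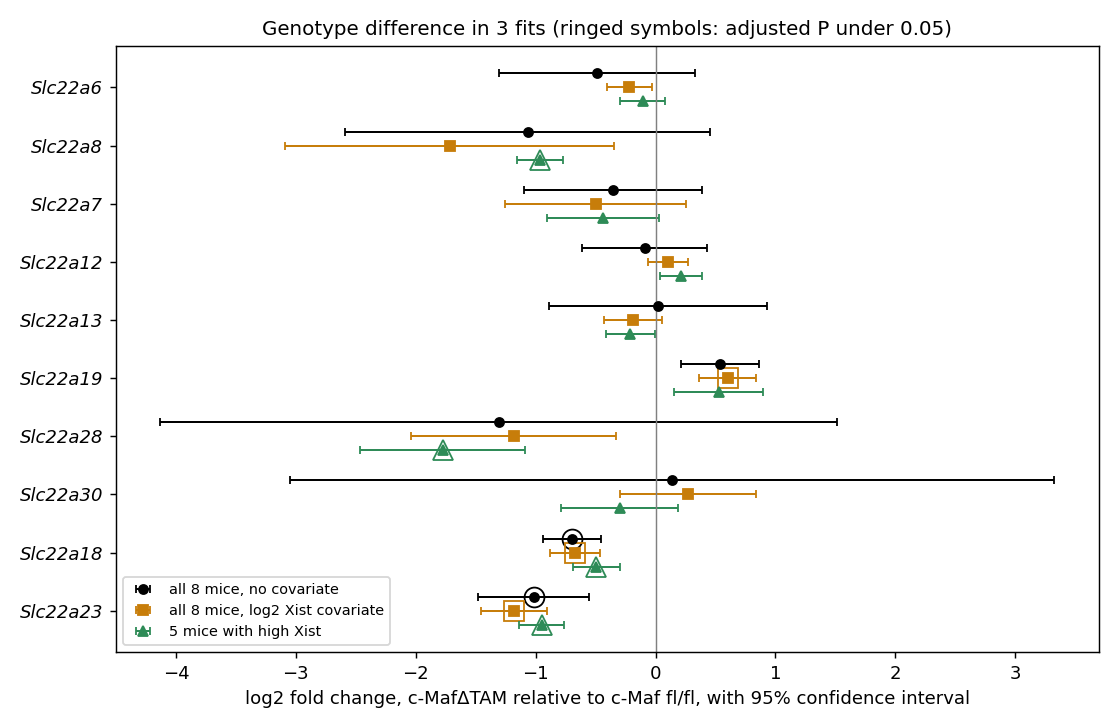
Log2 fold changes of knockouts relative to controls (x axis) with 95% confidence intervals, from all 8 mice (black), from all 8 mice with log2 *Xist* as a covariate (orange), and from the 5 mice with high *Xist* (green), with a ring where the adjusted *P* was under 0.05. *Slc22a18* and *Slc22a23* were ringed in all 3 fits. The interval of *Slc22a8* ran from -2.59 to 0.46 over all mice and from -1.16 to -0.77 in the mice with high *Xist*.

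*Slc22a8* encodes OAT3, the carrier of the blood-side membrane with the broader choice of substrates, and lies at chr19:8591254-8611835 of GRCm38, plus strand. It was at 31.9, 296.4, 260.2, and 249.97 CPM in knockouts 1 to 4 and at 504.9, 544.6, 370.1, and 336.9 CPM in controls 1 to 4. No knockout reached the lowest control, with knockout 1 far below the others of its genotype. Over the 8 mice, *Slc22a8* averaged 209.6 ± 120.2 and 439.1 ± 101.1 CPM (SD, n = 4 each), with a log2 fold change of -1.07 (standard error 0.634, adjusted *P* = 0.528, edgeR) that did not pass the threshold. In the high-*Xist* mice, *Slc22a8* fell by 0.97 on the log2 scale (standard error 0.0904, adjusted *P* = 1.1e-05, edgeR), with means of 268.9 CPM in 3 knockouts and 524.7 CPM in 2 controls. With the *Xist* covariate over all 8 mice, the estimate was -1.72 on the log2 scale and did not pass (standard error 0.540, adjusted *P* = 0.157, edgeR). Among the mice with low *Xist*, the single knockout was 11.1-fold below the mean of 353.5 CPM in 2 controls, a difference with no replicate. Without that mouse, the log2 fold change was -0.71 (adjusted *P* = 0.065). *Maf* was at a similar level in knockouts 1 and 4 (9.06 and 10.1 CPM), and *Slc22a8* was at 31.9 and 249.97 CPM there. Knockout 1 was also the lowest in the summed S1 and S2 proximal tubule genes, at 11970 CPM, where the highest knockout was at 15726 CPM and controls were at 18455 to 20806 CPM. That was not limited to these genes. The same mouse was the lowest of the 8 in the sums of thick ascending limb (4139 CPM), distal tubule and collecting duct (1463 CPM), and podocyte genes (370.9 CPM). It was the highest in the sum of S3 genes (6345 CPM). Their part in its *Slc22a8* value was not tested.

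*Slc22a6* encodes OAT1, the classical carrier of p-aminohippurate, and lies next to *Slc22a8* at chr19:8618039-8628299, plus strand, with start sites 24.8 kb apart. It was at 576.1, 313.2, 349.8, and 300.5 CPM in knockouts 1 to 4 and at 352.9, 337.8, 695.1, and 772.5 CPM in controls 1 to 4. The genotypes overlapped, and the 3 highest values belonged to the 3 mice with low *Xist*. Its log2 fold change was -0.49 over all mice (standard error 0.350, 95% confidence interval -1.31 to 0.33, adjusted *P* = 0.605, edgeR). With the *Xist* covariate, *Slc22a6* was at -0.22 (adjusted *P* = 0.162). In high-*Xist* mice the estimate was -0.11, with an interval of -0.29 to 0.08 (adjusted *P* = 0.647). There, a fall of the size seen in *Slc22a8* lay outside the interval of *Slc22a6*. In controls, *Slc22a6* was 2.13-fold higher in the 2 mice with low *Xist* than in the other 2, whereas its neighbor *Slc22a8* was 1.48-fold lower.

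The promoter windows of these neighbors (RefSeq, GRCm38.p6, plus strand, from 250 bases before to 50 bases after the start) are shown because the genes lie side by side and were ordered differently by genotype and by *Xist*. The RefSeq start of *Slc22a8* lies inside the gene span given above. Neither held any of the 3 motifs named after them, so no base is in capitals.

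*Slc22a8*, chr19:8592932-8593231: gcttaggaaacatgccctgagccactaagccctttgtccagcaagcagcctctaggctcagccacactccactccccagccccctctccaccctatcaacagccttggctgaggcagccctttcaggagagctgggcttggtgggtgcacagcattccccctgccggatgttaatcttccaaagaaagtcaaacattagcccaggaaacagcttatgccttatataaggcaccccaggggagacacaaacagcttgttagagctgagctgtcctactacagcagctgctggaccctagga

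*Slc22a6*, chr19:8617746-8618045: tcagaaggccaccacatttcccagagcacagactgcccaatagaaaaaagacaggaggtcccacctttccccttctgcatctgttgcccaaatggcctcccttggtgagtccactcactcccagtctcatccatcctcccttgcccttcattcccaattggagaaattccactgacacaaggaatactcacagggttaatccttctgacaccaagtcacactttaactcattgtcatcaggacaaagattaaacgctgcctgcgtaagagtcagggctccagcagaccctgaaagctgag

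RefSeq windows were found for 9 of the 10 members, all but *Slc22a7*. TGCTGA, one arm of the Maf recognition element, searched on both strands as were the other motifs, was in 0 of the 9 windows and in 19.5% of 32851 windows of 300 bases in the table. TGANTCA, the core of the TRE type of that element, was in 0 of 9 and 7.81%, and CAAAGTCCA, a site for HNF4, in 0 of 9 and 0.475%. The letters TGCTGA and TGANTCA can overlap, and a match is a description of the letters in these windows only.

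*Slc22a7* encodes OAT2, a carrier of organic anions and cyclic nucleotides that the liver also makes, and lies at chr17:46432183-46438457, minus strand. It was at 71.3, 137.5, 121.7, and 97.4 CPM in knockouts 1 to 4 and at 134.8, 187.2, 154.1, and 71.4 CPM in controls 1 to 4. Both the genotypes and the *Xist* groups overlapped, with the lowest values in 2 of the 3 mice with low *Xist*. *Slc22a7* had a log2 fold change of -0.36 (standard error 0.317, 95% interval -1.10 to 0.39, adjusted *P* = 0.694, edgeR), -0.50 with the *Xist* covariate, and -0.44 in the mice with high *Xist* (adjusted *P* = 0.432 and 0.359).

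The luminal urate carriers were ordered by *Xist*, and neither passed the threshold between genotypes in any of the 3 fits. *Slc22a12* (URAT1), at chr19:6535845-6543032, minus strand, was at 640.9, 444.4, 429.4, and 438.8 CPM in knockouts 1 to 4 and at 393.3, 361.2, 664.7, and 658.0 CPM in controls 1 to 4. The 3 mice with low *Xist* were the highest, between 641 and 665 CPM in both genotypes. Its log2 fold change was -0.09 over all mice (standard error 0.231, 95% confidence interval -0.61 to 0.43, adjusted *P* = 0.909, edgeR). With the *Xist* covariate it was 0.10 and among the mice with high *Xist* 0.21 (adjusted *P* = 0.497 and 0.225), so its direction turned with the setting. In those mice the interval of *Slc22a12* was 0.03 to 0.39 (unadjusted *P* = 0.0224, edgeR), with all 3 knockouts above both controls. Of its exonic bases, 30.1% overlap *Nrxn2* on the other strand, and the counting command in the file header sets neither a strand nor an option for overlapping genes, which leaves reads there uncounted. *Slc22a13* (OAT10), which exchanges urate and nicotinate, lies at chr9:119192974-119209098, minus strand. It was at 31.3, 65.9, 70.5, and 61.4 CPM in knockouts 1 to 4 and at 69.2, 83.2, 42.4, and 30.3 CPM in controls 1 to 4. The 3 mice with low *Xist* were the lowest, the reverse of *Slc22a12*. In controls, *Slc22a13* was 2.10-fold lower and *Slc22a12* 1.75-fold higher in the mice with low *Xist* than in those with high *Xist*. The log2 fold change of *Slc22a13* between genotypes was 0.02 (standard error 0.384, adjusted *P* = 0.987, edgeR) over all mice and -0.21 (adjusted *P* = 0.322) among those with high *Xist*, again with a turn of direction. In the latter, the interval of *Slc22a13* was -0.42 to -0.003 (unadjusted *P* = 0.047, edgeR), and the genotypes overlapped. Of its 36-base sequences, the length of a read, 40% also occurred in the pseudogene *Slc22a13b-ps*, and reads that map to both places were not counted.

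*Slc22a19*, *Slc22a28*, and *Slc22a30* lie in a cluster of related genes on chromosome 19, which in mice holds several organic anion transporters. *Slc22a19* encodes Oat5, a luminal carrier of the last (S3) proximal segment that exchanges dicarboxylates for steroid sulfates, and lies at chr19:7673061-7711310, minus strand. It was at 240.8, 178.2, 192.7, and 160.4 CPM in knockouts 1 to 4 and at 99.6, 145.8, 146.0, and 139.9 CPM in controls 1 to 4. All knockouts were above all controls, the only member with that order. The log2 fold change was 0.54 (standard error 0.149, unadjusted *P* = 0.00389, adjusted *P* = 0.104, edgeR) and did not pass the threshold over all mice. *Slc22a19* rose by 0.60 on the log2 scale with the *Xist* covariate (adjusted *P* = 0.00461) and was 0.53 among the mice with high *Xist* (adjusted *P* = 0.155).

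*Slc22a28* (chr19:8062209-8131982, minus strand) and *Slc22a30* (chr19:8335371-8405111, minus strand) are rodent members of the family. *Slc22a28* was at 31.4, 2.93, 3.22, and 1.19 CPM in knockouts 1 to 4 and at 7.75, 8.98, 37.3, and 42.7 CPM in controls 1 to 4. The 3 mice with low *Xist* were all above 31 CPM, and within the mice with high *Xist* the 3 knockouts were below both controls. There, *Slc22a28* fell by 1.77 on the log2 scale (standard error 0.314, adjusted *P* = 0.00662, edgeR), from a mean of 8.37 to 2.44 CPM. Over all mice, its log2 fold change was -1.31 with an interval of -4.13 to 1.51 (adjusted *P* = 0.699), and with the *Xist* covariate -1.18 (adjusted *P* = 0.120). Without knockout 1, the log2 fold change of *Slc22a28* over all mice was -3.30 (adjusted *P* = 0.195). *Slc22a30* was at 69.1, 4.37, 3.55, and 3.63 CPM in knockouts 1 to 4 and at 4.27, 5.19, 29.6, and 34.95 CPM in controls 1 to 4. Its highest value was that of knockout 1, 2.14-fold above the mean of the controls with low *Xist*, whereas *Slc22a28* in the same mouse was 1.27-fold below it. Its log2 fold change was 0.13 over all mice (95% confidence interval -3.05 to 3.32, adjusted *P* = 0.978, edgeR) and -0.30 among the mice with high *Xist* (-0.79 to 0.19, adjusted *P* = 0.610), so the direction turned between these fits. It was 0.27 with the *Xist* covariate (adjusted *P* = 0.608). In controls, *Slc22a28* was 4.79-fold and *Slc22a30* 6.83-fold higher in the 2 mice with low *Xist*, the largest such ratios of the 10 members.

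*Slc22a28* and *Slc22a30* share much of their sequence, which limits what 36-base reads can tell apart. Of the 36-base sequences of their transcripts, 63.1% of those of *Slc22a28* occurred in *Slc22a30*, and 37.1% of those of *Slc22a30* in *Slc22a28*. Their promoter windows (RefSeq, GRCm38.p6), whose start sites lie 273 kb apart, were identical at 288 of 294 bases once shifted by 6 bases. The aligned stretches are shown, read in the direction of the genes, because these 2 genes had the same order by *Xist*. Capitals mark the 6 bases that differ.

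*Slc22a28*, chr19:8131933-8132226, minus strand: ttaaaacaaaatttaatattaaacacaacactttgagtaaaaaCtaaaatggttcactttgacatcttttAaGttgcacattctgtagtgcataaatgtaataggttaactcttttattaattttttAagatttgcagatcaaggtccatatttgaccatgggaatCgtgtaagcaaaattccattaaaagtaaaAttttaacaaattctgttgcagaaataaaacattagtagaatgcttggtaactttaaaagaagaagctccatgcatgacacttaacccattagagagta

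*Slc22a30*, chr19:8405062-8405355, minus strand: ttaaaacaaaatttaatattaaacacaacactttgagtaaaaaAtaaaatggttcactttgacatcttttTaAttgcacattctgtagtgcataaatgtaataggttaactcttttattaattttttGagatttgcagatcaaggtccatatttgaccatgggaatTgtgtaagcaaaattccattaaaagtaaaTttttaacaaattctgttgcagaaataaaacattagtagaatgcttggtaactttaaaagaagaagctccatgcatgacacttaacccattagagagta

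When the counts of *Slc22a26* to *Slc22a30* were summed into 1 row to avoid a split between copies, the sum was at 195.1, 34.97, 35.7, and 24.4 CPM in knockouts 1 to 4 and at 37.7, 57.1, 129.95, and 128.7 CPM in controls 1 to 4. The *Xist* groups again did not overlap, and the log2 fold change between genotypes was -0.28 (standard error 0.826, adjusted *P* = 0.923, edgeR). Neighbors in this cluster differed in direction between the *Xist* groups. In controls, *Slc22a26* was 2.78-fold higher with low *Xist*, and *Slc22a28* and *Slc22a30* were higher too. The ratio of low to high *Xist* was 0.551 for *Slc22a27* and 0.255 for *Slc22a29*, which lies between *Slc22a28* and *Slc22a30*. The ratio of *Slc22a27* rests on low counts, 16, 28, 13, and 8 in controls 1 to 4. *Slc22a29* was at 13.5, 15.0, 3.75, and 3.52 CPM in these mice.

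**Figure D3:**
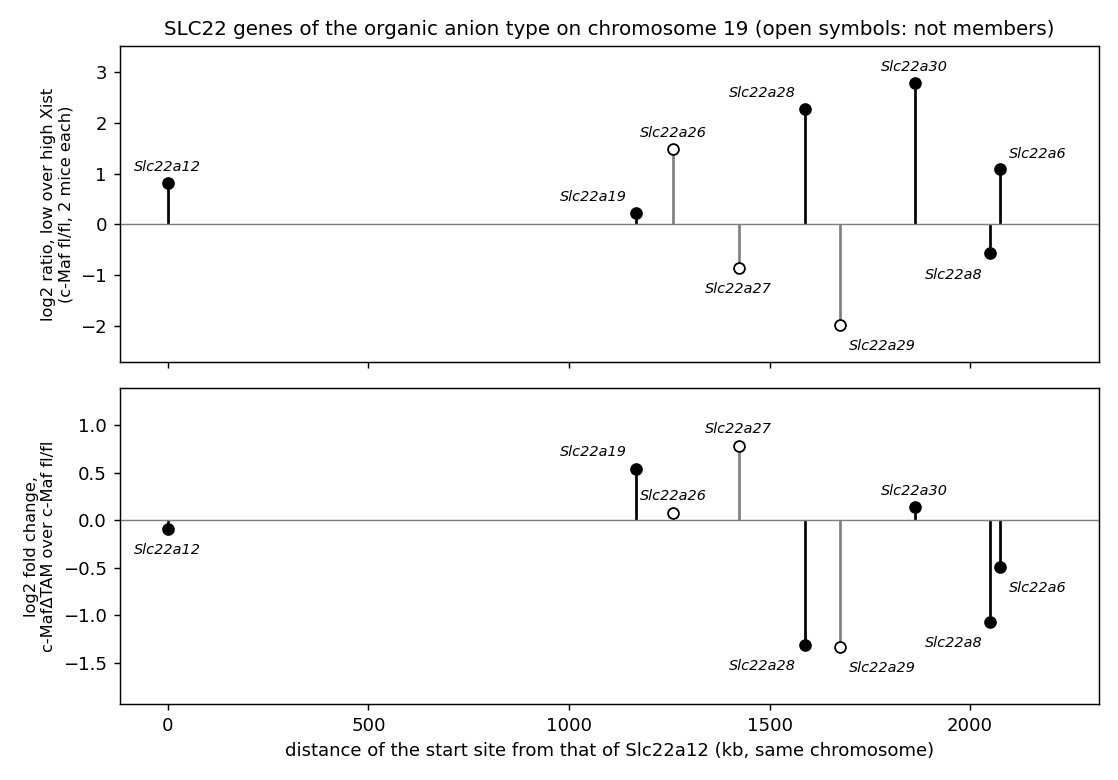
SLC22 genes of the organic anion type on chromosome 19, placed by the distance of their start sites from that of *Slc22a12* (x axis, kb). The upper panel gives the log2 ratio of 2 controls with low *Xist* to 2 with high *Xist*, and the lower panel the log2 fold change between genotypes over 8 mice, without error bars; members are filled. Some neighbors pointed in opposite directions in the upper panel, as *Slc22a28*, *Slc22a29*, and *Slc22a30* did with ratios of 4.79, 0.255, and 6.83.

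*Slc22a18* and *Slc22a23*, which had lower calls in all 3 fits, are more distant members whose substrates are little known. *Slc22a18* lies in an imprinted region at chr7:143473736-143499334, plus strand. It was at 157.1, 191.0, 170.0, and 174.8 CPM in knockouts 1 to 4 and at 231.9, 270.2, 299.4, and 320.7 CPM in controls 1 to 4. All knockouts were lower, and their spread was narrow, at 173.2 ± 13.996 against 280.6 ± 38.5 CPM (SD, n = 4 each). *Slc22a18* fell by 0.70 on the log2 scale (standard error 0.111, 95% confidence interval -0.94 to -0.45, adjusted *P* = 0.00624, edgeR). The fall was 0.67 with the *Xist* covariate and 0.49 among the mice with high *Xist* (adjusted *P* = 0.00048 and 0.00469), and it passed the threshold with any 1 mouse left out. *Slc22a23* lies at chr13:34179158-34345182, minus strand. It was at 50.9, 105.4, 102.3, and 89.0 CPM in knockouts 1 to 4 and at 187.2, 194.5, 170.1, and 151.3 CPM in controls 1 to 4. Every knockout was lower, with mouse 1 the lowest, and *Slc22a23* averaged 86.9 ± 25.05 against 175.8 ± 19.2 CPM (SD, n = 4 each). *Slc22a23* fell by 1.02 on the log2 scale (standard error 0.207, 95% confidence interval -1.48 to -0.55, adjusted *P* = 0.0398, edgeR). The fall was 1.18 with the *Xist* covariate and 0.95 among the mice with high *Xist* (adjusted *P* = 0.000143 and 9.64e-06). When 1 mouse was left out, *Slc22a23* lost its call in 7 of 8 fits, with adjusted *P* values from 0.0518 to 0.108 and log2 fold changes from -1.12 to -0.96. Without knockout 1, it passed at an adjusted *P* of 0.0014 with a log2 fold change of -0.83. No 36-base sequence of either gene occurred in another gene.

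The promoter windows of these 2 genes (RefSeq, GRCm38.p6) are shown because they were the members called over all mice. Neither held any of the 3 motifs searched, so no base is in capitals.

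*Slc22a18*, chr7:143473539-143473838, plus strand: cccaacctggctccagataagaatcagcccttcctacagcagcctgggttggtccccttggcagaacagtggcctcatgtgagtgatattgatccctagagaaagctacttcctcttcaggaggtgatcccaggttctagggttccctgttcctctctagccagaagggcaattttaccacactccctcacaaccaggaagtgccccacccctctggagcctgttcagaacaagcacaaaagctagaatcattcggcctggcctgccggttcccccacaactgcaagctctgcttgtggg

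*Slc22a23*, chr13:34345169-34345468, minus strand: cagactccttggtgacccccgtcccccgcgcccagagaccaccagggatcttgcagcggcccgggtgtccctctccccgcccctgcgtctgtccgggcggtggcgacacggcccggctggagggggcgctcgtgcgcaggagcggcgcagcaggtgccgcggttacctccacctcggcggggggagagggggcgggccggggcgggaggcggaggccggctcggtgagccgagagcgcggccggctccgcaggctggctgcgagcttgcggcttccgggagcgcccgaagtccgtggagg

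Levels were compared between genes as CPM per kilobase of exon. In controls, *Slc22a12* was the highest at 229.5 ± 72.7, followed by *Slc22a18* at 165.1 ± 22.6, *Slc22a6* at 135.5 ± 56.9, *Slc22a8* at 112.3 ± 25.9, and *Slc22a7* at 65.2 ± 23.2 (SD, n = 4). *Slc22a13*, *Slc22a23*, and *Slc22a19* were between 24.5 and 28.1, *Slc22a28* was at 12.1 ± 9.20, and *Slc22a30* was at 5.50 ± 4.77. The range of each gene over the 4 controls overlapped that of the next gene in this order. Within a mouse, the upper gene was the higher in all 4 controls for *Slc22a12* over *Slc22a18*, *Slc22a8* over *Slc22a7*, *Slc22a7* over *Slc22a13*, *Slc22a19* over *Slc22a28*, and *Slc22a28* over *Slc22a30*, in 3 of 4 for *Slc22a18* over *Slc22a6*, and in 2 of 4 for each of the other neighbors. The length used for *Slc22a12* includes the bases shared with *Nrxn2*, and those of *Slc22a13*, *Slc22a28*, and *Slc22a30* lack reads that map to several places. In the knockout means, the first 5 genes kept this order, and *Slc22a19* moved from the eighth to the sixth place, at 35.5 ± 6.34. Knockouts 2 to 4 each kept the order of the first 5 genes, and knockout 1 did not. In that mouse *Slc22a6* (144.6) was above *Slc22a18* (92.5), and *Slc22a8* (8.15) was below *Slc22a7* (33.95). The sum over the 10 genes was 558.3 to 666.6 in knockouts and 679.6 to 914.6 in controls. *Slc22a8* made up 13.9% of that sum in controls and 8.82% in knockouts, as shares of the genotype means. Per mouse, *Slc22a8* was at 8.15, 75.8, 66.5, and 63.9 in knockouts 1 to 4, of sums of 666.6, 613.7, 591.5, and 558.3. In controls 1 to 4 it was at 129.1, 139.3, 94.7, and 86.2, of sums of 679.6, 736.7, 914.6, and 889.9. The shares of single mice overlapped between the genotypes, and that of knockout 1 was the lowest.

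**Figure D4:**
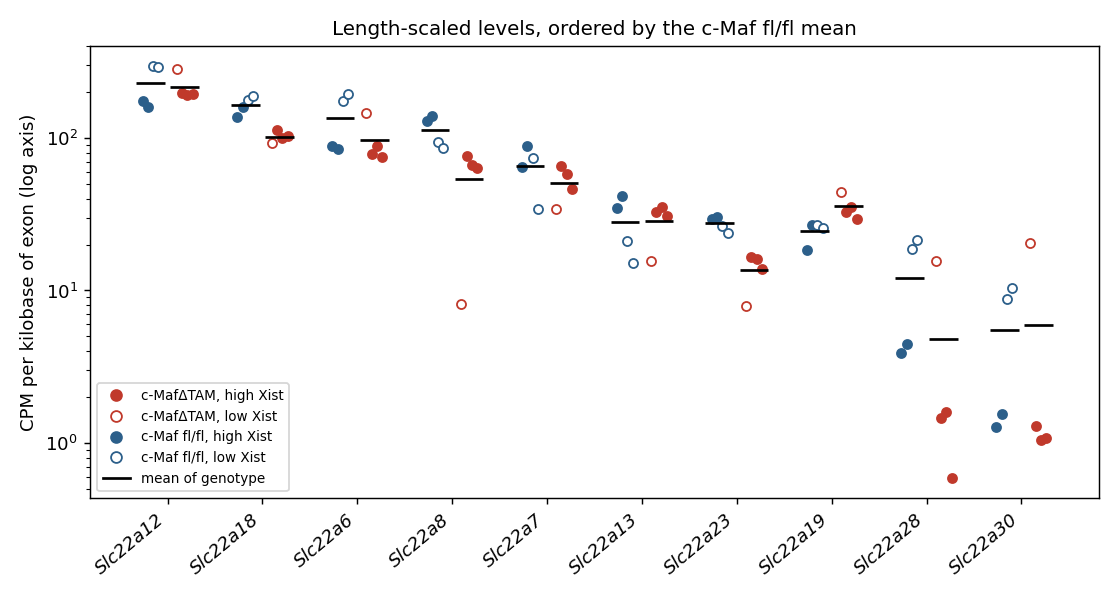
CPM per kilobase of exon (y axis, log scale) of the 10 genes in each mouse, ordered by the control mean, with controls on the left (blue) and knockouts on the right (red) of each pair and bars for the means. Open circles are mice with low *Xist*. *Slc22a8* in knockout 1, at 8.15, stood below all other values of that gene, which lay between 63.9 and 139.3.

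Of 5 further mouse SLC22 genes of the organic anion type, *Slc22a20* had no count, 4 were tested, and 0 passed the threshold in either direction, with 1 higher at an unadjusted *P* under 0.05 (edgeR) and 0 called by DESeq2. The most abundant were *Slc22a26*, with means of 37.7 CPM in knockouts and 35.9 CPM in controls, and *Slc22a22*, with 38.4 and 33.04 CPM. Of 10 cation, carnitine, and other SLC22 genes, 9 were tested, 1 was lower, and 0 were higher past the threshold. This gene, *Slc22a5*, encodes the carnitine carrier OCTN2 and was at 67.6 to 83.8 CPM in knockouts and 188.4 to 212.2 CPM in controls (log2 fold change -1.47, standard error 0.0907, adjusted *P* = 4.88e-06, edgeR). *Slc22a2*, which encodes the organic cation transporter OCT2, had a log2 fold change of 0.53 (adjusted *P* = 0.594).

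OAT1 and OAT3 depend on carriers and enzymes that keep dicarboxylates high inside the cell. A list of 9 genes around this supply held carriers of the dicarboxylate family and enzymes that make or consume glutamate and α-ketoglutarate. Of these, 2 were lower and 0 higher past the threshold, and the median log2 fold change was -0.27. The lower genes were *Slc13a1*, a sulfate carrier of the dicarboxylate carrier family, with a log2 fold change of -0.83 (standard error 0.125, adjusted *P* = 0.00465, edgeR), and *Slc25a10*, the mitochondrial dicarboxylate carrier, with -0.50 (standard error 0.0899, adjusted *P* = 0.0123). *Slc13a3*, which returns α-ketoglutarate from the blood side, was named after its values were seen. Its means were 330.5 ± 92.2 CPM in knockouts and 602.7 ± 89.9 CPM in controls (SD, n = 4 each), without overlap, and its adjusted *P* was 0.0763 with edgeR's quasi-likelihood test, while the edgeR exact test and DESeq2 called it lower. The glutathione-cleaving *Ggt1* and the α-ketoglutarate dehydrogenase gene *Ogdh* had log2 fold changes of 0.05 and -0.17 (adjusted *P* = 0.944 and 0.449).

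Of 11 genes for the exit of organic anions to the urine or by other routes, 0 passed the threshold in either direction, with 0 higher and 1 lower at an unadjusted *P* under 0.05 (edgeR), and DESeq2 called 1 lower, the efflux pump *Abcg2*. The export pump *Abcc2* and the luminal anion carrier *Slc17a3* had log2 fold changes of -0.29 and -0.07 (adjusted *P* = 0.393 and 0.954). Of 12 genes of urate transport and metabolism, 11 were tested, and only *Slc5a12*, a sodium-coupled lactate carrier of early proximal tubules, was lower with edgeR's quasi-likelihood test (121.4 ± 15.1 against 398.2 ± 101.9 CPM, SD, n = 4 each, log2 fold change -1.71, adjusted *P* = 0.000349, edgeR). *Slc5a12* stands among the 10 S1 and S2 genes as well. *Abcg2* belongs to the urate list too, and DESeq2 called it lower there besides *Slc5a12*. *Pdzk1*, a scaffold that binds URAT1, had a log2 fold change of -0.35 (adjusted *P* = 0.433).

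Of the transcription factors known to act on these transporters, *Ppara* and *Hnf4a* are described. *Ppara*, a fatty acid-sensing receptor, was at 63.4 ± 8.13 CPM in knockouts and 112.4 ± 10.5 CPM in controls (SD, n = 4 each, log2 fold change -0.83, adjusted *P* = 0.00147, edgeR). *Hnf4a*, a factor of proximal tubule and liver identity, had a log2 fold change of -0.20 (adjusted *P* = 0.386). The median log2 fold changes of the 5 related lists above, other SLC22 genes, dicarboxylate supply, anion exit, and urate, lay between -0.27 and 0.15, and are set beside the -0.42 of the 10 members as a description.

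The calls on *Slc22a5*, *Slc13a1*, *Slc25a10*, *Slc5a12*, and *Ppara* passed with the *Xist* covariate and in the mice with high *Xist* as well, where their log2 fold changes were -1.47, -0.79, -0.47, -1.94, and -0.85. *Slc13a3* passed in both of these fits, with -1.05 and -0.85.

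**Figure D5:**
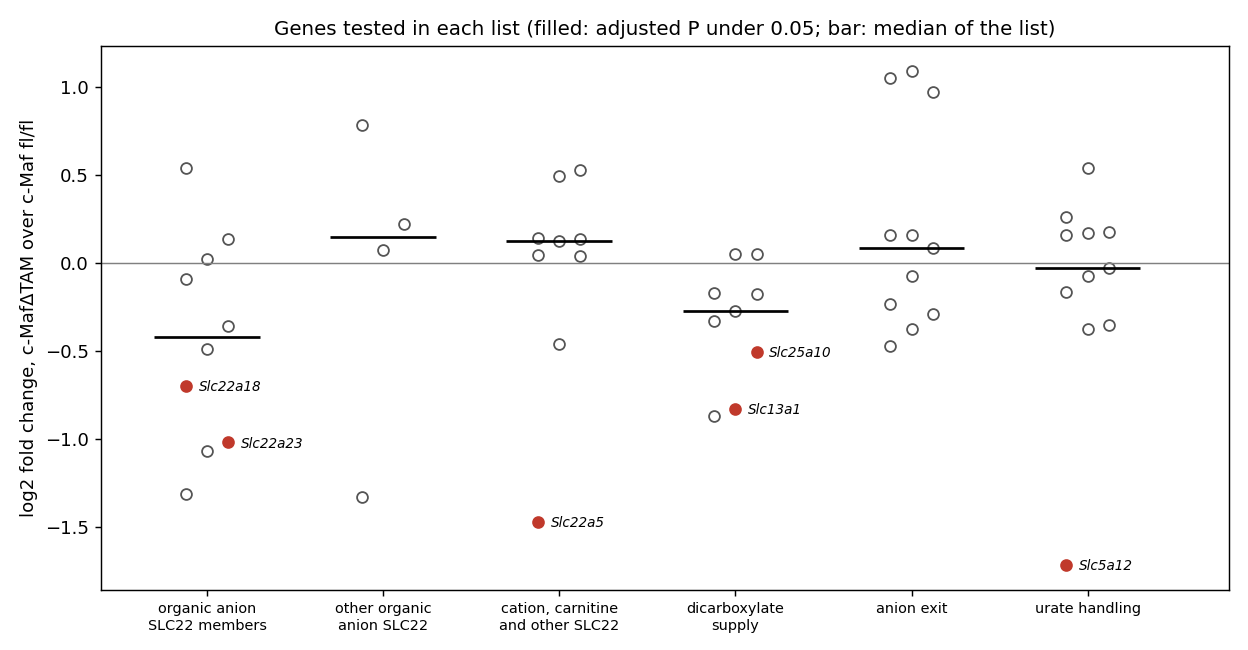
Log2 fold changes of knockouts relative to controls for each tested gene (points) of the 10 members and of 5 related lists, with the median of each list as a bar and calls at an adjusted *P* under 0.05 filled. The members had 2 lower calls and a median of -0.42, and the carriers and enzymes for dicarboxylates had 2 lower calls and a median of -0.27.

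Markers of other kidney cells did not pass the threshold. Of 6 thick ascending limb, 7 distal tubule and collecting duct, and 5 podocyte genes, 0 passed, nor did any of 6 leukocyte, 7 tubular injury, or 6 hepatocyte genes tested. At an unadjusted *P* under 0.05, 1 injury gene was higher and 1 hepatocyte gene was lower, with 0 in the other 4 lists (edgeR). The edgeR exact test and DESeq2 called that hepatocyte gene, *Alb*, lower, at 0.661 to 8.85 CPM over the 8 mice, and 0 others. The sum of all 8 listed injury genes was at 578.7 to 946.1 CPM in knockouts and 669.2 to 1229 CPM in controls, and that of all 7 listed leukocyte genes was at 43.8 to 54.3 and 37.8 to 46.0 CPM. Most of the injury sum was *Spp1*, at 346.8 to 642.9 CPM in knockouts and 459.3 to 962.0 CPM in controls. Of the 7 injury genes tested, 6 pointed higher and 1 lower in knockouts, with a median log2 fold change of 0.04. Of 8 tested kidney genes known to differ by sex, 0 passed, with 0 at an unadjusted *P* under 0.05 and 0 by DESeq2. The sum of all 9 listed genes was at 4171 to 15452 CPM in knockouts, with knockout 1 the highest, and at 2519 to 10031 CPM in controls. Most of this sum was *Kap*, at 13730 CPM in knockout 1 and 3342 to 4195 CPM in the other knockouts. The listed genes did not all move together, so the sum does not stand for each of them. *Prlr* was at 56.7 CPM in knockout 1 and at 400.3 to 467.3 CPM in the other knockouts.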

How the data were processed

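RNA-Seq of whole kidneys (2 × 36-base paired-end reads after rRNA depletion) was deposited as 1 table of raw counts per gene. Per the file headers, the authors counted reads with featureCounts 2.0.1 on Ensembl release 102 (GRCm38), with no option for strand, multi-mapping reads, or overlapping genes. The submitters' processing notes name Subread 2.0.2. The study's methods name the CLC Genomics Workbench for mapping to mm10, and whether it made the alignments behind the deposited counts is not given in the sources used here. The table also holds the exonic length of each gene, another deposited value besides the counts, used for levels per kilobase.

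Counts of 4 *c-Maf*ΔTAM and 4 *c-Maf* fl/fl kidneys were scaled by TMM, filtered with filterByExpr (20149 genes kept), and tested with edgeR 4.0.16 in R 4.3.3 (glmQLFit and glmQLFTest), with Benjamini-Hochberg adjustment and a threshold of 0.05. Single members were also tested with exact permutation tests. The genotype labels and replicate numbers came from the titles. The labels only number the replicates, and the study's methods and legends describe them as mice, 4 per group. No 2 libraries of a genotype agreed within sampling noise (chi-square per degree of freedom 5.48 to 109). Mice with over 1000 *Xist* counts were called high. Alternatives were RLE and upper-quartile scaling, the edgeR exact test, DESeq2 1.42.0, other filters, a replicate block, log2 *Xist* as a covariate, high-*Xist* mice only, each mouse left out, libraries without mitochondrial and rRNA genes, summed paralogs, and a threshold of 0.01. The named genes were all members, up to 5 called genes of each further list by *P*, and the 2 most abundant that were not called, plus *Slc13a3*, *Abcg2*, *Alb*, *Slc22a27*, and *Slc22a29*, named after their values were seen, and the genes without a count (*Slc22a20*, *Ahsg*, *Serpina3k*). For the marker lists, mostly counts and sums are given in place of names. Members and lists were chosen with earlier results of these data known. The scripts were tested on simulated data. Promoter windows came from RefSeq (GRCm38.p6). Figures were drawn with matplotlib 3.10.9. Total counts of 16649129 to 22990257 per library set the depth. Some genes that this rule names in the lists of cation carriers and of transcription factors and receptors, and the counts of the latter list, are not reported here.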

Additional observations from a re-analysis of the deposited data

Results flagged for a closer look

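In groups of 4 mice, a value was singled out where its gap to the nearest other mouse exceeded 0.829 of the group's range (Dixon's limit). Of 22 groups examined, 4 held such a value. Chance gives about 1 in 20 in independent groups of like mice. The groups here shared mice and mixed high and low *Xist*, so the count cannot be judged against that rate. *Slc22a12* was at 640.9 CPM in knockout 1, against 429.4 to 444.4 CPM in the others of that genotype. *Slc22a28* was at 31.4 CPM in the same mouse, against 1.19 to 3.22 CPM, and *Slc22a30* was at 69.1 CPM, against 3.55 to 4.37 CPM. That mouse was the only knockout with low *Xist*. *Slc22a19* was at 99.6 CPM in control 1, against 139.9 to 146.0 CPM in the others, which lowers the mean that knockouts are compared with.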

How the results depend on the processing

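Over all 8 mice, 436 genes passed (118 higher, 318 lower in knockouts), 2 members among the lower and 0 among the higher. The exact test gave 682 genes (256 higher), DESeq2 846 (284 higher, 562 lower; 1 member higher), at least 1 count in any mouse 191 higher and 1 member lower, the *Xist* covariate 1441 (561 higher, 880 lower; 1 member higher), the high-*Xist* mice 789 (322 higher; 4 members lower), and a threshold of 0.01 180 (36 higher, 144 lower; 1 member lower). With 1 mouse left out, 239 to 452 genes passed, 51 to 142 higher and 188 to 310 lower, with 1 to 2 members lower and 0 higher.

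Replicate numbers are not stated to pair the mice. Correlations of same-numbered mice, taken after the mean of each genotype was removed, lay between -0.37 and 0.15, the highest for number 2. They cannot decide on pairing, because the mice of numbers 1, 3, and 4 differed in *Xist* between the genotypes. With the replicate block, 129 genes passed (18 higher, 111 lower) and 0 members, with *Slc22a18* at -0.69 (adjusted *P* = 0.0567) and *Slc22a23* at -1.06 (0.101), and *Slc22a30* turned to -0.995.

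Log2 fold changes turned direction for *Slc22a12* with the *Xist* covariate (0.10), in high-*Xist* mice (0.21), and without control 3 or 4 (0.0539 and 0.0495), within -0.24 to 0.05 over the mice left out. *Slc22a13* turned with the covariate (-0.19), in high-*Xist* mice (-0.21), without knockout 2, 3, or 4 (-0.05, -0.09, -0.01), and without control 3 or 4 (-0.09, -0.18), up to 0.27 without control 2. *Slc22a30* turned in high-*Xist* mice (-0.30), without knockout 1 (-2.25), without control 1 or 2 (-0.20, -0.18; up to 0.64 without control 4), and with paralogs summed (-0.28). *Slc22a28* was at -2.14 with the replicate block and -3.30 to -0.88 with 1 mouse left out, *Slc22a6* at -0.75 to -0.26, and *Slc22a7* at -0.57 to -0.17. *Slc22a19* passed with DESeq2 (adjusted *P* = 0.0325), and *Slc22a23* did not pass with at least 1 count in any mouse (0.156). The causes were not tested. Depth limits *Slc22a28* and *Slc22a30* in high-*Xist* mice, with under 10 CPM each.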
